A study of Homo sapiens with 12 samples.

Results

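The proteins of the mitochondrial ribosome (mitoribosome) were followed through 78 genes, which are the protein-coding genes of the deposited tables whose symbols start with MRPL or MRPS and a digit. The table for SCC15 cells lists 29657 genes and the table for SCC25 cells lists 31055, and the same 78 members stood in both. The genes were taken by a rule on the name alone, and the rule was set with earlier results of these data known. By the position of the protein in the human mitoribosome, 51 members belong to the large subunit and 26 to the small subunit. The letter in the symbol gives 49 and 29, because MRPS30 and MRPS18A are proteins of the large subunit that kept a small-subunit name, and MRPS36 is a component of the 2-oxoglutarate dehydrogenase complex that belongs to neither subunit. All 78 members passed the filter on low values, a mean of 10 normalized counts, in both cell lines.

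SCC15 and SCC25 are lines of oral squamous cell carcinoma, a head and neck cancer (HNSCC), and the labels give the genotype of all libraries as wild type (WT). Cells of each line received squamocin for 24 h, at 10 µg/mL by the methods of the study, or DMSO, the solvent alone, and 3 libraries of bulk RNA were sequenced per treatment and line, 12 in all. The labels call the treatment ACGs, for the annonaceous acetogenins, the class of plant compounds that contains squamocin. They do not state that the 3 libraries of a group came from separate cultures, so the p-values measure the spread between these libraries, which may be technical.

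The mitoribosome translates the few messenger RNAs encoded by the mitochondrial genome, whose products are core subunits of the respiratory chain and of ATP synthase. Its RNA is made inside mitochondria, whereas its proteins are encoded in the nucleus, translated in the cytosol and imported. Many of them descend from bacterial ribosomal proteins, and others were added in the mitochondrial lineage. The large subunit holds the peptidyl transferase centre, the exit tunnel and the central protuberance, and the small subunit reads the messenger RNA. Acetogenins are known as inhibitors of Complex I, the respiratory chain complex that contains several subunits made by the mitoribosome.

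A library held 17656864 to 19792137 recovered reads in SCC15 and 16665563 to 22748845 in SCC25. The 78 members took 0.343% to 0.350% of the normalized counts in the DMSO libraries of SCC15 and 0.364% to 0.368% in those of SCC25. Their share with squamocin was 0.382% to 0.388% in SCC25, and it was 0.326%, 0.335% and 0.426% in the 3 libraries of SCC15, the highest being replicate 3. This library stood apart from its group, with a chi-square per degree of freedom of 43.2 and 38.8 against the other 2 libraries, while all other pairs of replicates gave 1.52 to 7.21. It held the highest squamocin value for 76 of the 78 members in SCC15, whereas replicate 3 of SCC25 held the highest for 23. The main counts of members called in SCC15 and the medians of their groups there are therefore given with and without it. Of 8 squamous epithelial markers, 8 were present in SCC25, while in SCC15 DSG3 lay at 0 to 2.56 normalized counts with DMSO, KRT5 at 5.12 to 13.1, EPCAM at 10.5 to 11.9 and TP63 at 12.7 to 22.7, beside KRT14 at 752 to 768 and SFN at 2375 to 2517. The summed level of the 8 markers in SCC15 was 3810 to 3959 with DMSO and 5218 to 8769 with squamocin, and in SCC25 it was 24473 to 24640 and 37267 to 38554. Such a sum is carried by the abundant genes. Of the 6 tested in SCC15, 2 were higher and 0 lower, with a median log2 fold change of -0.16. In SCC25, 5 of the 8 were higher and 2 lower (median 0.79). Markers of other cell types (8 genes) summed to 761 to 821 with DMSO and 465 to 486 with squamocin in SCC15, and to 789 to 874 and 921 to 1092 in SCC25. Of these 8, 4 were tested in each line, and 0 were higher and 2 lower in SCC15 (COL3A1 and PECAM1), and 1 higher (COL1A1) and 2 lower (CDH5 and PECAM1) in SCC25. PTPRC, of leukocytes, reached at most 3.95 in SCC15. Their part in the results was not tested.

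The stretches before the start of 6 members are shown because short motifs of promoters were among the features that some members shared, and because these 6 genes range from large rises in both lines (MRPL41) to a fall in SCC25 (MRPS18A). MRPS10 and MRPS26 were added for their windows. Each line gives the 150 bases that end just before the start of the gene in RefSeq (GRCh38.p14). None of these bases was counted as exonic in the annotation used for that check. By the deposited gene positions, the windows of MRPL54, MRPS10, MRPS26 and MRPL20 lie partly within the gene and that of MRPL41 wholly. Exons at those positions were not checked. Capitals mark the letters CCGGAAG, the core bound by ETS factors, on either strand.
MRPL54 (chr19:3762532-3762681, plus strand): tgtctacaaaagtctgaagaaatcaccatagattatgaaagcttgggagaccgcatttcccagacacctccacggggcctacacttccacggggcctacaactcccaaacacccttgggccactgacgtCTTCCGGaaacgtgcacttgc
MRPS10 (chr6:42217862-42218011, minus strand): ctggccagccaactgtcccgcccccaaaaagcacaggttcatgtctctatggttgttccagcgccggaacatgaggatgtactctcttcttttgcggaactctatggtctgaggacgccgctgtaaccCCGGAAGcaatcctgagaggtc
MRPS26 (chr20:3045902-3046051, plus strand): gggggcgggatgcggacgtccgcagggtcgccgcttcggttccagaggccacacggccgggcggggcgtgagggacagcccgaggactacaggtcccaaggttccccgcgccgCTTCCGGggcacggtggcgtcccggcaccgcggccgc
MRPL20 (chr1:1407294-1407443, minus strand): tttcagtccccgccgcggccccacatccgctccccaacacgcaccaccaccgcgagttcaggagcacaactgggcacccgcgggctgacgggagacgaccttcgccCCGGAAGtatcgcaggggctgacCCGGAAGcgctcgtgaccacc
MRPS18A (chr6:43687792-43687941, minus strand): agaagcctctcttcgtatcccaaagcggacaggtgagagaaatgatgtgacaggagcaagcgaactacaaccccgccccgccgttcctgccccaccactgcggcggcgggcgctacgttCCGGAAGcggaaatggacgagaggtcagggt
MRPL41 (chr9:137551729-137551878, plus strand): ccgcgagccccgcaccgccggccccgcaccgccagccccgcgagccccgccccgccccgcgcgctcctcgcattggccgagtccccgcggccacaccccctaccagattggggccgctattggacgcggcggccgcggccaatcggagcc
The first 5 of these windows hold the letters and the window of MRPL41 does not. The 6 windows are no measure of how common the letters are among the members. Over the longer promoter stretches searched, they stood in 29 of the 69 members matched.

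Many members had higher levels with squamocin than with DMSO in both cell lines. Of the 78 members, 40 were higher with squamocin in SCC15, 5 were lower and 33 did not pass the test. In SCC25, 39 were higher, 15 lower and 24 not past it. Among all genes tested, 30.9% were called higher and 30% lower in SCC15 (15902 genes), and 38.3% and 38.5% in SCC25 (16539 genes). The median log2 fold change of the members was 0.43 in SCC15, where that of all genes was 0.012, and 0.14 in SCC25, where that of all genes was -0.015. In such bulk samples, fewer cells of a type and less RNA per cell cannot be told apart. Calls were made with limma at a threshold of 0.05 after Benjamini-Hochberg adjustment over all genes tested in the line. The values tested are log2 normalized counts with 1 added, a scale that understates the change of low genes.

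These counts depended on the scaling of the libraries. When every library was instead scaled to the same total, the median of all genes moved by -0.49 in SCC15 and by -0.21 in SCC25 on the log2 scale. In SCC15, 19 members were then higher and 22 lower, beside 14.8% and 50.5% of all genes, and in SCC25, 25 were higher and 30 lower, beside 30.4% and 47.4% of all genes. The median of the members was -0.07 in both lines on that scale, above the medians of all genes, -0.48 in SCC15 and -0.22 in SCC25. Without squamocin replicate 3 of SCC15, 41 members were higher and 18 lower in SCC15, beside 38.4% and 37.2% of all genes, and the median of the members was 0.26. All 40 rises and all 5 falls were kept without this library.

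**Figure D1:**
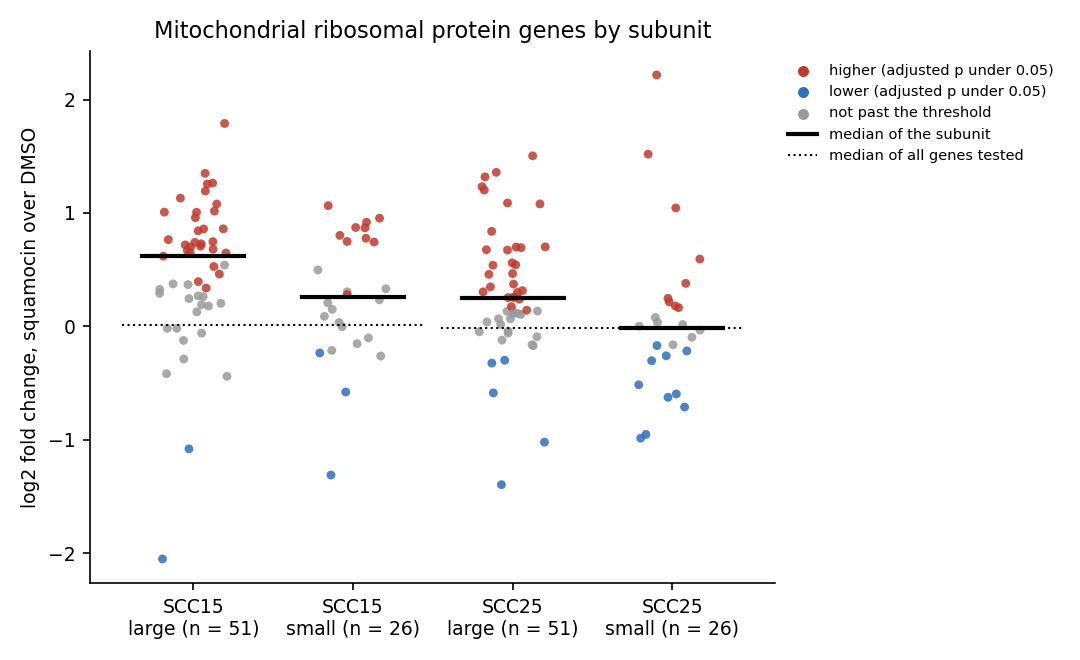
Log2 fold change (squamocin against DMSO) of the members of each subunit in SCC15 and SCC25, coloured by call, with lines at the medians of each subunit and of all genes tested. The median of the large subunit lies at 0.62 in SCC15 and 0.25 in SCC25, and that of the small subunit at 0.26 and -0.016.

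The medians of the large subunit lay above those of the small subunit in both lines, a difference that no test covers. In SCC15, 30 of the 51 large-subunit members were higher and 2 lower, with a median log2 fold change of 0.62, while 10 of the 26 small-subunit members were higher and 3 lower, with a median of 0.26. In SCC25, 29 large-subunit members were higher and 5 lower (median 0.25), and 9 small-subunit members were higher and 10 lower (median -0.016). The large-subunit median thus lay 0.36 above the small-subunit median in SCC15 and 0.27 above it in SCC25. In SCC15, 58.8% of the large subunit and 38.5% of the small one were higher, beside 30.9% of all genes, and 3.92% and 11.5% were lower, beside 30%. In SCC25, 56.9% of the large subunit were higher and 9.80% lower. The small subunit there, with 34.6% higher and 38.5% lower, lay near all genes, with 38.3% and 38.5% and a median of -0.015. With equal library totals the large subunit stood at 12 higher and 11 lower in SCC15 (median 0.12) and at 20 higher and 14 lower in SCC25 (median 0.047), and the small subunit at 7 and 10 (median -0.24) and at 5 and 16 (median -0.22). With squamocin replicate 3 left out, the large subunit gave 30 higher and 9 lower in SCC15 (median 0.40) and the small subunit 11 higher and 9 lower (median 0.087). The difference of the means in place of the medians was 0.21 in SCC15 and 0.26 in SCC25. Among the members that overlap no other coding gene, 29 of the large subunit and 10 of the small one, the difference of the medians was 0.20 in SCC15 and 0.26 in SCC25.

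The balance of the subunits also showed in each library, in the ratio of the summed normalized counts of the large-subunit genes to those of the small-subunit genes. In SCC15 the ratio was 1.91, 1.89 and 1.89 with DMSO (1.90 ± 0.011, SD, n = 3) and 2.03, 2.05 and 2.12 with squamocin (2.07 ± 0.046, SD, n = 3). In SCC25 it was 1.97, 1.95 and 1.96 with DMSO (1.96 ± 0.0058, SD, n = 3) and 2.32, 2.36 and 2.37 with squamocin (2.35 ± 0.026, SD, n = 3). The squamocin libraries lay above all DMSO libraries of their line, and those of SCC25 above those of SCC15. A ratio within a library does not depend on its scaling. The levels of the members also spread further apart: the SD over members of the log2 level per kilobase rose from 1.28 to 1.33 with DMSO to 1.64 to 1.70 with squamocin in SCC15, and from 1.26 to 1.31 to 1.44 to 1.46 in SCC25.

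**Figure D2:**
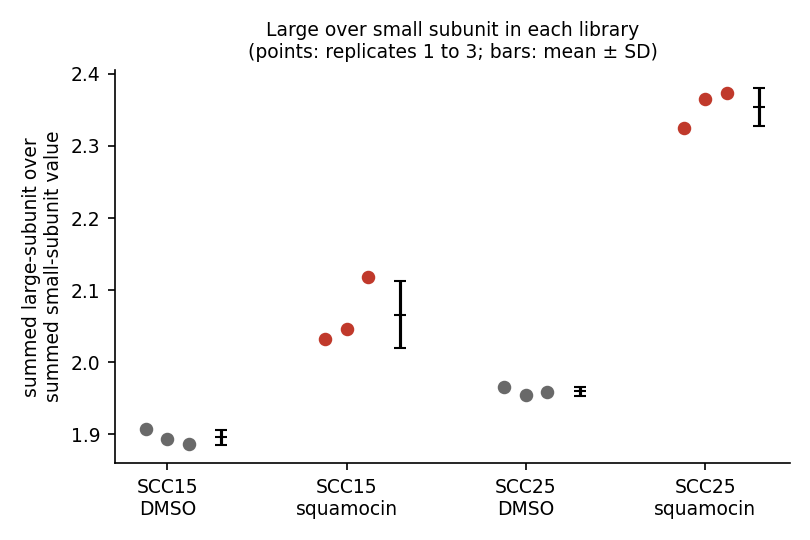
Ratio of summed normalized counts, large-subunit genes over small-subunit genes, in each of the 12 libraries, with the mean and SD of each group of 3 on an axis that does not start at 0. The DMSO libraries lie at 1.89 to 1.97 and the squamocin libraries at 2.03 to 2.12 in SCC15 and 2.32 to 2.37 in SCC25.

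Among the large-subunit genes, rises outnumbered falls both for proteins with a bacterial homologue and for those counted as mitochondria-specific. In the large subunit, 19 of 30 homologues were higher and 1 lower in SCC15 (median 0.66), and 17 higher and 1 lower in SCC25 (median 0.25). Of the 21 mitochondria-specific large-subunit proteins, 11 were higher and 1 lower in SCC15 (median 0.40), and 12 higher and 4 lower in SCC25 (median 0.17). In the small subunit the 16 homologues gave 6 higher and 2 lower in SCC15 (median 0.27) and 6 and 5 in SCC25 (median -0.016), and the 10 mitochondria-specific proteins gave 4 and 1 (median 0.24) and 3 and 5 (median -0.076). When squamocin replicate 3 of SCC15 was left out, the homologues of the large subunit gave 19 higher and 3 lower in that line (median 0.43) and its mitochondria-specific proteins 11 and 6 (median 0.30). The homologues of the small subunit then gave 6 higher and 6 lower (median 0.0018), and its mitochondria-specific proteins 5 and 3 (median 0.16). Among all genes tested, 30.9% were higher and 30% lower in SCC15, and 38.3% and 38.5% in SCC25. No difference between these classes was tested.

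In SCC15 the 5 largest rises among members with a mean of at least 100 normalized counts were all in the large subunit. MRPL38 (ENSG00000204316, chr17:75898643-75905413, GRCh38), a protein of the central protuberance, stood at 58.0, 73.5 and 54.1 with DMSO and 252, 222 and 177 with squamocin. The groups did not overlap, and the log2 fold change was 1.79 ± 0.19 (SE, adjusted p = 0.000216). In SCC25 it stood at 34.7, 62.1 and 48.7 with DMSO and 127, 99.8 and 133 with squamocin, again without overlap, with a log2 fold change of 1.32 ± 0.21 (SE, adjusted p = 9.58e-05). The locus of MRPL38 overlaps AC087289.3 on the same strand, so their reads may not be separable, which was not tested. MRPL54 (ENSG00000183617, chr19:3762664-3768575), a protein of the large subunit without a bacterial homologue, stood at 297, 312 and 257 with DMSO and 611, 544 and 1193 with squamocin in SCC15, a log2 fold change of 1.35 ± 0.28 (SE, adjusted p = 0.00441). Squamocin replicate 3 was far above the other 2, and without it the log2 fold change was 1.00. In SCC25 MRPL54 stood at 583, 509 and 548 with DMSO and 658, 666 and 693 with squamocin, which is a smaller rise without overlap, 0.30 ± 0.07 (SE, adjusted p = 0.00142), and was not past the test with equal library totals (0.09).

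MRPL41 and MRPL52 are further large-subunit proteins counted as mitochondria-specific. MRPL41 (ENSG00000182154, chr9:137551199-137552555) stood at 935, 920.3 and 864 with DMSO and 1646, 1804 and 3476 with squamocin in SCC15. In SCC25 it stood at 1256, 1231 and 1214 with DMSO and 2138, 2215 and 2267 with squamocin. All squamocin libraries were above all DMSO libraries in both lines, with log2 fold changes of 1.26 ± 0.26 (SE, adjusted p = 0.00441) in SCC15 and 0.84 ± 0.05 (SE, adjusted p = 4.25e-09) in SCC25. MRPL52 stood at 837, 854 and 847 with DMSO and 1684, 1688 and 2902 with squamocin in SCC15 and at 656, 619.8 and 676 with DMSO and 1285, 1404 and 1444 with squamocin in SCC25. Its groups did not overlap in either line, and its log2 fold changes were 1.26 (adjusted p = 0.00152) and 1.08 (adjusted p = 5.87e-09). MRPL55, which lies in the central protuberance and is counted among the bacterial homologues, stood at 433, 409 and 438 with DMSO and 789, 872 and 1355 with squamocin in SCC15 and at 352, 372 and 420.5 with DMSO and 573, 639.5 and 612 with squamocin in SCC25. It rose by 1.19 (adjusted p = 0.00147) and 0.67 (adjusted p = 7.00e-06) on the log2 scale, without overlap. Without squamocin replicate 3 of SCC15 the log2 fold changes in that line were 0.93 for MRPL41, 0.99 for MRPL52 and 0.96 for MRPL55.

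In SCC25 the 5 largest rises above the same mean were those of MRPS6, MRPL23, MRPL18, MRPL32 and MRPL34, all of which have bacterial homologues and rose in SCC15 as well. MRPS6 (ENSG00000243927, chr21:34073224-34143034), a protein of the small-subunit platform, stood at 382, 375 and 385 with DMSO and 1104, 1193 and 991 with squamocin in SCC25 and at 616, 684 and 613 with DMSO and 1114, 985 and 1591 with squamocin in SCC15. The groups lay apart in both lines, and the log2 fold changes were 1.52 (adjusted p = 1.11e-09) and 0.92 (adjusted p = 0.00298). MRPL23, which lines the end of the exit tunnel, stood at 474, 475 and 463 with DMSO and 1454, 1487 and 1104 with squamocin in SCC25 and at 237, 268 and 275 with DMSO and 342, 435 and 959 with squamocin in SCC15. Its log2 fold changes were 1.50 (adjusted p = 1.63e-08) and 1.01 (adjusted p = 0.0352), and the call in SCC15 was lost without any 1 of the 3 DMSO libraries (log2 fold change 0.94 to 1.05, adjusted p = 0.0771 to 0.103). With squamocin replicate 3 of SCC15, by far its highest library, left out, the log2 fold change of MRPL23 was 0.57. MRPL18, whose bacterial counterpart binds 5S ribosomal RNA, stood at 916, 813 and 842 with DMSO and 2159, 2141 and 2290.3 with squamocin in SCC25 and at 1164, 1086 and 1134 with DMSO and 1618, 1647 and 2396 with squamocin in SCC15. The rises were 1.36 (adjusted p = 3.47e-10) and 0.72 (adjusted p = 0.00541).

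MRPL32 (ENSG00000106591, chr7:42932200-42948958) is cut to its mature form by the m-AAA protease in the matrix before it joins the ribosome. It stood at 1525, 1374 and 1429 with DMSO and 3297, 3391 and 3470.5 with squamocin in SCC25 and at 801, 800.1 and 793 with DMSO and 1496, 1500.1 and 1879 with squamocin in SCC15. The groups did not overlap, with log2 fold changes of 1.23 (adjusted p = 2.47e-10) and 1.02 (adjusted p = 0.000240). MRPL34 is a small protein of the large subunit. It stood at 331, 354 and 339.9 with DMSO and 867, 724 and 778 with squamocin in SCC25 and at 522, 529.7 and 519 with DMSO and 692, 772 and 1109.9 with squamocin in SCC15, rises of 1.20 (adjusted p = 1.72e-08) and 0.68 (adjusted p = 0.0102). MRPS24, which lines the path by which messenger RNA enters the small subunit, lay below the mean set for the 5 largest rises, with DMSO values of 24.2 to 40.5 in SCC25. It stood there at 24.2, 40.5 and 29.2 with DMSO and 158, 122 and 162 with squamocin, a log2 fold change of 2.22 ± 0.21 (SE, adjusted p = 6.85e-07) and the highest of any member. In SCC15 it stood at 96.4, 102 and 111 with DMSO and 184, 171 and 255 with squamocin, a rise of 0.95 (adjusted p = 0.00250). MRPS24 overlaps URGCP-MRPS24 on the same strand, so its low values may leave out shared reads, which was not tested. With equal library totals the rises of MRPL18, MRPL23 and MRPL34 in SCC15 were not past the test (0.22, 0.51 and 0.18).

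**Figure D3:**
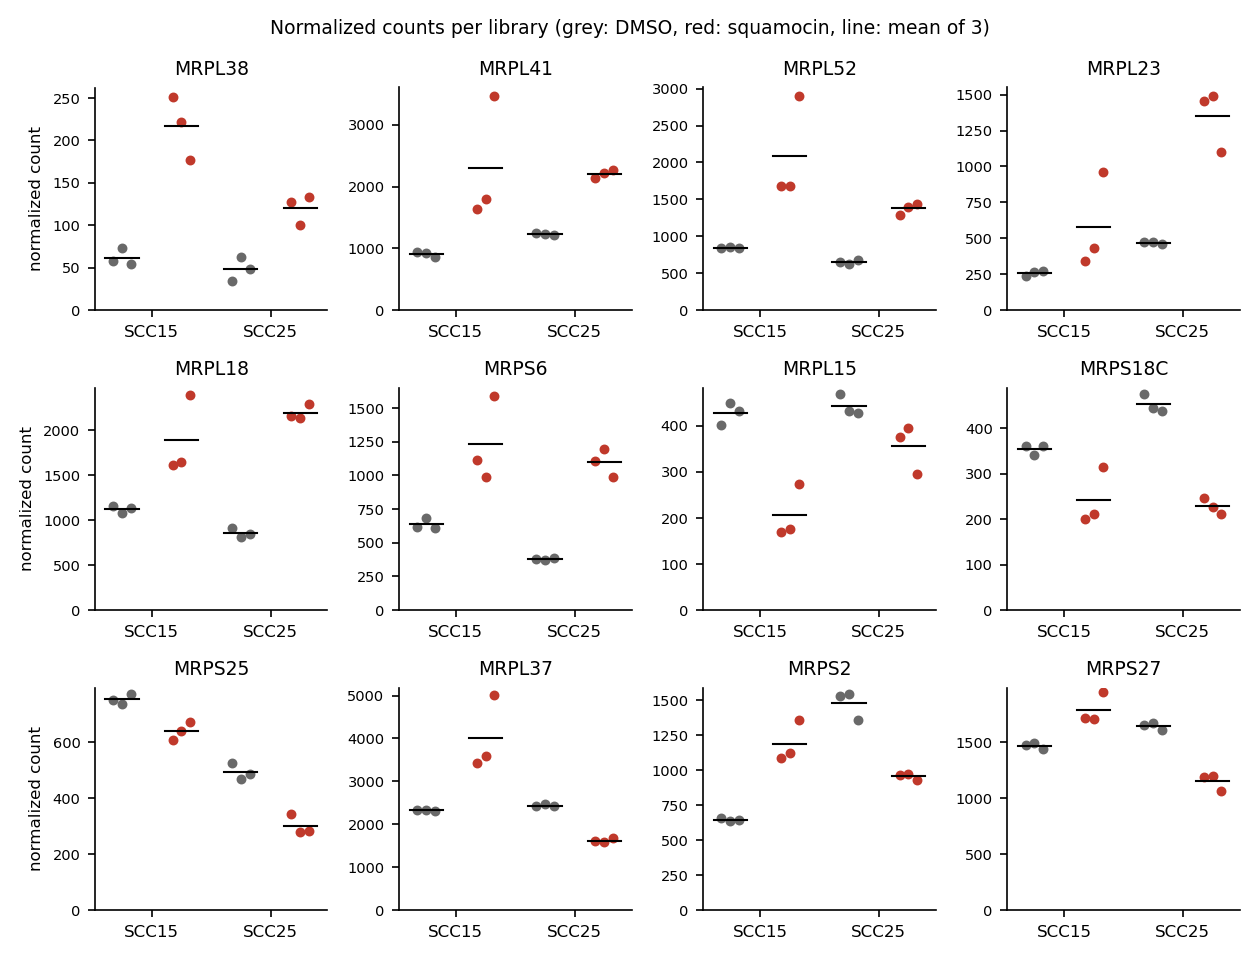
Normalized counts in each of the 12 libraries for 12 members with rises, falls or opposite responses, on a linear axis from 0, with a point per library (grey for DMSO, red for squamocin) and a line at the mean of 3. MRPS2 and MRPL37 lie above their DMSO libraries in SCC15 and below them in SCC25.

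The 5 members that were lower in SCC15 were lower in SCC25 too. They are MRPL15, MRPL53, MRPS17, MRPS18C and MRPS25, and they are 6.41% of the 78 members, where 18.6% of all genes tested in both lines were lower in both. They make up 100% of the 5 falls in SCC15 and 33.3% of the 15 falls in SCC25, while over all genes the shared falls were 63.4% of those in SCC15 and 49.1% of those in SCC25. When squamocin replicate 3 of SCC15 was left out, 11 members were lower in both lines (14.1%), beside 21.7% of all genes. MRPL15, a homologue of a bacterial large-subunit protein, stood at 402, 449.9 and 431 with DMSO and 169, 177 and 274 with squamocin in SCC15 and at 468, 432 and 428 with DMSO and 376, 396 and 295 with squamocin in SCC25. All squamocin libraries were below all DMSO libraries, with log2 fold changes of -1.08 (adjusted p = 0.00203) and -0.32 (adjusted p = 0.0129), and the call in SCC25 was lost without DMSO replicate 1 (log2 fold change -0.28, adjusted p = 0.0606) and was -0.20 without squamocin replicate 3. MRPS17, whose bacterial counterpart binds ribosomal RNA early in assembly, stood at 53.7, 84.6 and 78.6 with DMSO and 23.2, 26.2 and 36.1 with squamocin in SCC15 and at 176, 131 and 192 with DMSO and 86.4, 99.8 and 69.9 with squamocin in SCC25. It fell without overlap in both lines, with log2 fold changes of -1.31 (adjusted p = 0.00359) and -0.95 (adjusted p = 0.000259). MRPS25, a small-subunit protein without a bacterial homologue, stood at 748, 737 and 770.0 with DMSO and 607, 638 and 672 with squamocin in SCC15 and at 525, 469.5 and 485 with DMSO and 342, 279.7 and 284 with squamocin in SCC25. Its log2 fold changes were -0.23 (adjusted p = 0.0419) and -0.71 (adjusted p = 1.30e-05), and the call in SCC15 was lost without each library other than squamocin replicate 3 (log2 fold change -0.25 to -0.20, adjusted p = 0.0916 to 0.151).

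MRPL53 (ENSG00000204822, chr2:74471958-74473322) had the lowest log2 fold change of all members in both lines, and is named here after its values were seen, since its mean lay under 100. It stood at 38.4, 53.0 and 55.9 with DMSO and 10.4, 9.12 and 13.7 with squamocin in SCC15 and at 66.9, 81.9 and 69.0 with DMSO and 25.4, 31.2 and 24.4 with squamocin in SCC25. The groups did not overlap, with log2 fold changes of -2.05 (adjusted p = 0.000621) and -1.40 (adjusted p = 3.57e-05). The gene shares its locus with CCDC142, which fell with a log2 fold change of -2.08 in SCC15 and -2.89 in SCC25, and reads from the 2 genes may not be separable.

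The 3 relatives MRPS18A, MRPS18B and MRPS18C sit at different places, MRPS18A in the large subunit and the other 2 in the small subunit, and MRPS18C is counted here as the bacterial homologue and the other 2 as mitochondria-specific. MRPS18C (ENSG00000163319, chr4:83455932-83469735) stood at 362, 341 and 361 with DMSO and 201, 211 and 315 with squamocin in SCC15 and at 475, 444 and 438 with DMSO and 247, 228 and 211 with squamocin in SCC25. Its log2 fold changes were -0.58 (adjusted p = 0.0231) and -0.99 (adjusted p = 3.29e-07), and the call in SCC15 was lost without each library other than squamocin replicate 3 (log2 fold change -0.61 to -0.46, adjusted p = 0.0589 to 0.0739). MRPS18A stood at 506, 458 and 487 with DMSO and 219.9, 237 and 258 with squamocin in SCC25, a fall without overlap (-1.02, adjusted p = 2.28e-07). In SCC15 it stood at 220.1, 232 and 226 with DMSO and 169, 176 and 213 with squamocin, which did not pass the test (-0.29, adjusted p = 0.0778) although the groups did not overlap, and without squamocin replicate 3 it did (-0.39). MRPS18B stood at 1492, 1411 and 1568 with DMSO and 1232, 1299.9 and 1099 with squamocin in SCC25, a log2 fold change of -0.30 (adjusted p = 0.00111), and at 529.8, 535 and 492 with DMSO and 446, 449 and 693 with squamocin in SCC15, where the groups overlapped (-0.0024, adjusted p = 0.991). The family thus gave 0 rises in either line, 1 fall in SCC15 and 3 in SCC25. Without squamocin replicate 3 of SCC15 it gave 3 falls in that line (median -0.39), MRPS18B among them (-0.21, adjusted p = 0.0128) and MRPS18C at -0.78.

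Of the 78 members, 30 were higher in both lines (38.5%), beside 22.1% of all genes tested in both. The 30 are 75% of the members' rises in SCC15 and 76.9% of those in SCC25, while over all genes the shared rises were 68.2% of those in SCC15 and 54.6% of those in SCC25. Large-subunit genes made up 23 of the 30 and small-subunit genes 7. Another 6 were higher in SCC15 alone and 9 in SCC25 alone by their calls, 6 were lower in SCC25 and not past the test in SCC15, and 18 passed in neither line. Opposite calls were found for 4 members, each higher in SCC15 and lower in SCC25, where 5.44% of all genes did so, and for 0 members the other way round, where 4.66% of all genes did. With squamocin replicate 3 of SCC15 left out, 31 members were higher in both lines (39.7%), beside 25.4% of all genes. The same 4 members were then higher in SCC15 and lower in SCC25, where 8.09% of all genes were, and MRPL30, MRPL35 and MRPL50 were lower in SCC15 and higher in SCC25, where 6.97% of all genes were. The log2 fold changes of the 2 lines correlated across the 78 members with r = 0.634 (rho = 0.584), where all genes tested in both gave r = 0.608 (rho = 0.563). The sign was the same in both lines for 62 of the 78 members, beside 10004 of the 14454 genes tested in both. The count of members was 60 without squamocin replicate 3 of SCC15. Genes are not independent replicates, and members share their libraries.

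**Figure D4:**
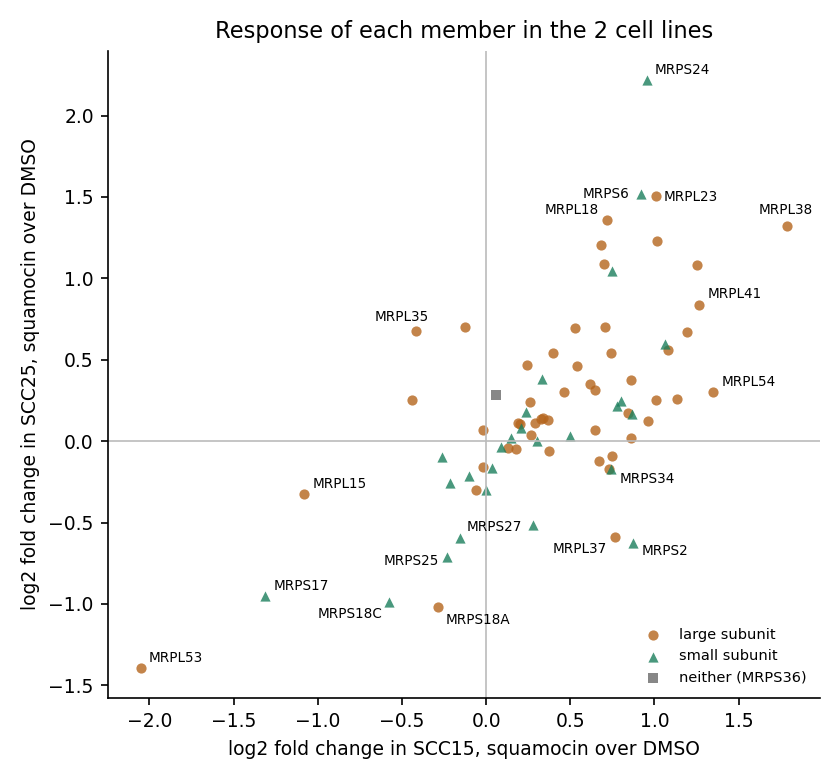
Log2 fold change of each member in SCC15 (horizontal axis) and SCC25 (vertical axis), with symbols for the subunit and names for selected members. The 4 members with opposite calls, MRPS2, MRPL37, MRPS27 and MRPS34, lie at the lower right.

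The 4 members with opposite calls were MRPS2, MRPL37, MRPS27 and MRPS34, 3 of the small subunit and 1 of the large. All 4 overlap a coding gene on the opposite strand, as 27 of the 78 members do. The strand setting of the counting is not given, so reads of the overlapping genes may be included, which was not tested. MRPS2 (ENSG00000122140, chr9:135499984-135504673), a homologue of a bacterial protein that joins the head and body of the small subunit, stood at 659, 635 and 644 with DMSO and 1088, 1122 and 1356 with squamocin in SCC15 and at 1529, 1546 and 1362 with DMSO and 963, 974 and 934 with squamocin in SCC25. All squamocin libraries were above the DMSO libraries in SCC15 and all were below them in SCC25, with log2 fold changes of 0.87 (adjusted p = 0.000401) and -0.63 (adjusted p = 6.74e-07). The difference between the 2 responses, by a limma contrast over the 4 groups, was 1.50 ± 0.12 (SE, adjusted p = 9.14e-07). MRPL37 (ENSG00000116221, chr1:54184041-54225464), a mitochondria-specific large-subunit protein, stood at 2331, 2335 and 2309 with DMSO and 3436, 3582 and 5016 with squamocin in SCC15 and at 2415, 2471 and 2422 with DMSO and 1603, 1578 and 1688 with squamocin in SCC25. Again the groups lay apart in both lines and in opposite order, with log2 fold changes of 0.77 (adjusted p = 0.00317) and -0.59 (adjusted p = 1.04e-07) and a difference of 1.35 ± 0.16 (SE, adjusted p = 1.72e-05). Both differences remained past the test with equal library totals and without each library in turn.

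MRPS27, a pentatricopeptide repeat protein of the small subunit, stood at 1478, 1491 and 1439.5 with DMSO and 1716, 1704 and 1944 with squamocin in SCC15 and at 1655, 1669.5 and 1605 with DMSO and 1192, 1196 and 1065 with squamocin in SCC25. Its log2 fold changes were 0.28 (adjusted p = 0.0241), which turned to -0.22 with equal library totals, and -0.52 (adjusted p = 2.77e-06). The rise in SCC15 was also lost without any 1 of the 3 DMSO libraries (log2 fold change 0.27 to 0.29, adjusted p = 0.0740 to 0.0995), while the difference between the lines was 0.80 ± 0.10 (SE, adjusted p = 3.74e-05). MRPS34, a small-subunit protein in which inherited defects cause Leigh syndrome, stood at 2050, 2154 and 2118 with DMSO and 2801, 2978 and 5268 with squamocin in SCC15 and at 1613, 1645 and 1789 with DMSO and 1599, 1494 and 1398 with squamocin in SCC25. The groups lay apart in both lines, squamocin replicate 3 of SCC15 being far above the other 2, with log2 fold changes of 0.74 (adjusted p = 0.0227) and -0.17 (adjusted p = 0.0218) and a difference of 0.91 ± 0.25 (SE, adjusted p = 0.00804). The call in SCC15 was lost without any 1 of its DMSO libraries (log2 fold change 0.72 to 0.76, adjusted p = 0.0617 to 0.0711) and with equal library totals (0.25), and that in SCC25 without DMSO replicate 3 (log2 fold change -0.12, adjusted p = 0.121). When squamocin replicate 3 was left out, the log2 fold change of MRPS34 in SCC15 was 0.45.

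Over all members, the response was higher in SCC15 than in SCC25 for 19 and lower for 8, where 26.1% and 26% of the 14454 genes tested in both were called so. Among the 40 members that overlap no other coding gene, it was higher for 5 and lower for 4. With equal library totals 14 were higher and 18 lower, where 16.6% and 37.7% of all genes were called so, and the median difference of the members was -0.093 where that of all genes was -0.27. Without squamocin replicate 3 of SCC15, 23 were higher and 22 lower, where 32.5% and 33.4% of all genes were called. All 19 and all 8 were kept without that library. Among the 8, MRPS24 differed by -1.26 ± 0.29 (SE, adjusted p = 0.00273). MRPL35, a large-subunit homologue, stood at 469, 475 and 482 with DMSO and 296, 328 and 464 with squamocin in SCC15 and at 555, 596 and 559 with DMSO and 952, 991 and 803 with squamocin in SCC25. It rose in SCC25 (0.68, adjusted p = 5.18e-06) and did not pass the test in SCC15 (-0.42, adjusted p = 0.0608), where it passed as lower without squamocin replicate 3 (-0.61), and the difference was -1.09 ± 0.20 (SE, adjusted p = 0.000477). MRPL50, a mitochondria-specific protein, stood at 329, 378 and 354 with DMSO and 252, 335 and 403 with squamocin in SCC15, where the groups overlapped, and at 694, 691 and 657 with DMSO and 1149, 1182 and 998 with squamocin in SCC25, where it rose (0.70, adjusted p = 1.04e-06). With squamocin replicate 3 of SCC15 left out, it passed there as lower (-0.28, adjusted p = 0.0232). The difference was -0.83 ± 0.20 (SE, adjusted p = 0.00343), that of MRPL15 was -0.76 ± 0.23 (SE, adjusted p = 0.0154), and that of MRPL54 was 1.05 ± 0.31 (SE, adjusted p = 0.0114).

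Several members have roles beyond the structure of the ribosome or at known sites. MRPL12, of the stalk that recruits translation factors, also binds the mitochondrial RNA polymerase, and stood at 215, 234 and 202 with DMSO and 343, 312 and 773 with squamocin in SCC15 and at 351, 318 and 320.4 with DMSO and 421, 413 and 349.7 with squamocin in SCC25. Its log2 fold changes were 1.01 (adjusted p = 0.0271) and 0.25 (adjusted p = 0.0212), and both calls were lost with equal library totals (0.51 and 0.05), the first without any 1 of the SCC15 DMSO libraries (adjusted p = 0.0613 to 0.0814), and the second without SCC25 squamocin replicate 1 or 2 or DMSO replicate 2 or 3 (adjusted p = 0.0632 to 0.0832). When squamocin replicate 3 was left out, the value of MRPL12 in SCC15 was 0.59. MRPL45, which lies near the exit of the tunnel by the inner membrane, had log2 fold changes of -0.06 (adjusted p = 0.795) and -0.30 (adjusted p = 0.000461), the former passing as lower without squamocin replicate 3 (-0.28, adjusted p = 0.00125). MRPL58, a peptidyl-tRNA hydrolase that is also a ribosomal protein, passed in neither line (-0.02, adjusted p = 0.949 and -0.16, adjusted p = 0.146), but passed as lower in SCC15 without that library (-0.28, adjusted p = 0.00970). MRPS12, at the decoding site, passed in neither line, with 0.50 (adjusted p = 0.129) in SCC15 and 0.03 (adjusted p = 0.685) in SCC25, the latter turning to -0.17 with equal library totals and the former standing at 0.18 without squamocin replicate 3. MRPS30 rose in both lines, 0.40 (adjusted p = 0.0126) in SCC15 and 0.54 (adjusted p = 5.32e-07) in SCC25, and the former turned to -0.10 with equal totals and was lost without DMSO replicate 1 or 3 (adjusted p = 0.0536 to 0.0562). MRPS36, which belongs to the 2-oxoglutarate dehydrogenase complex, gave 0.06 (adjusted p = 0.768) in SCC15, turning to -0.44 with equal totals and to -0.12 without squamocin replicate 3. In SCC25 it gave 0.28 (adjusted p = 0.0197), which was lost with equal totals (0.07) and without squamocin replicate 2 or DMSO replicate 2 or 3 (adjusted p = 0.0733 to 0.0823).

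By site in the ribosome, 7 members were counted at the central protuberance (MRPL18, MRPL27, MRPL38, MRPL40, MRPL46, MRPL48 and MRPL55). They gave 5 rises and 0 falls in each line, with median log2 fold changes of 0.73 in SCC15 and 0.56 in SCC25. Of the 3 members of the stalk, 2 rose in each line (medians 0.71 and 0.25). Of the 6 members around the exit tunnel, 3 rose in SCC15 and 2 in SCC25, where 1 fell (medians 0.47 and 0.12). MRPS5 and MRPS24, at the entry of the messenger RNA, rose in both lines, and each overlaps a coding gene on the same strand. Over all genes tested, 30.9% rose and 30% fell in SCC15, and 38.3% and 38.5% in SCC25. Without squamocin replicate 3 of SCC15, the central protuberance gave 5 rises and 1 fall in that line (median 0.72), the stalk 2 rises (median 0.41) and the exit tunnel 3 rises and 1 fall (median 0.24). These lists are short, may not hold every member at a site and use the main scaling, and no test of them was made.

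Per kilobase of the canonical transcript, the highest levels with DMSO in SCC15 were those of MRPS34 (2112 normalized counts per kilobase), MRPL20 (1847), MRPL51 (1809), MRPL37 (1568) and MRPL36 (1558). In SCC25 they were those of MRPL41 (2120), MRPL51 (1732), MRPL21 (1727), MRPL14 (1725) and MRPS34 (1686). The lowest were MRPS17 (40.5) and MRPL38 (45.6) in SCC15, and MRPL38 (35.7) and MRPS24 (46.9) in SCC25. Each of these low members overlaps a coding gene on the same strand, so its level may leave out shared reads, which was not tested. The levels per kilobase of the 2 lines correlated across members with r = 0.844 (rho = 0.829). Among these abundant members, MRPL20 passed the test in neither line, with log2 fold changes of 0.27 (adjusted p = 0.286) and 0.04 (adjusted p = 0.567), the latter turning to -0.17 with equal totals. MRPL51 gave 0.25 (adjusted p = 0.346) and 0.47 (adjusted p = 7.23e-07), and MRPL36 gave 0.26 (adjusted p = 0.245) and 0.24 (adjusted p = 0.0150), the second of which was lost with equal totals (0.03) and without squamocin replicate 2 or DMSO replicate 2 or 3 (adjusted p = 0.0532 to 0.0667). With squamocin replicate 3 left out, the log2 fold changes in SCC15 were 0.01 for MRPL20, -0.02 for MRPL51 and 0.04 for MRPL36. MRPL21 rose in both (0.86, adjusted p = 0.00374 and 0.37, adjusted p = 3.84e-05). MRPL14 rose in SCC15 (0.86, adjusted p = 0.0211) but not without any 1 of the DMSO libraries (adjusted p = 0.0598 to 0.0638) or with equal totals (0.36), stood at 0.54 without squamocin replicate 3, and gave 0.02 (adjusted p = 0.768) in SCC25, turning to -0.19 with equal totals.

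The partners of these proteins were followed in lists written from general knowledge. Of 5 mitoribosomal proteins whose symbols do not start with MRP, 3 rose and 0 fell in SCC15 (median log2 fold change 0.75), and 3 rose and 1 fell in SCC25 (median 0.37). AURKAIP1 and GADD45GIP1 rose in both lines (1.10 and 0.37 for AURKAIP1, 1.18 and 0.45 for GADD45GIP1). DAP3, a GTP-binding protein of the small subunit, stood at 1593, 1686 and 1579 with DMSO and 2347, 2464 and 3455 with squamocin in SCC15, and at 2177, 2185 and 2193 with DMSO and 2013, 1864 and 1920 with squamocin in SCC25. Like the members with opposite calls it lay above its DMSO libraries in SCC15 and below them in SCC25 (0.75 and -0.18), and the difference was 0.92 (adjusted p = 0.000408). With equal totals its rise in SCC15 was not past the test (0.25). CHCHD1 rose in SCC25 (0.59) and gave 0.48 in SCC15 without passing the test, and PTCD3 passed in neither line (-0.03 and 0.01). When squamocin replicate 3 of SCC15 was left out, these 5 genes gave 3 rises and 0 falls there (median 0.57), with CHCHD1 at 0.11.

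Of 16 mitochondrial translation factors, 6 rose and 4 fell in SCC15 (median 0.058), and 3 rose and 8 fell in SCC25 (median -0.16). TUFM, the elongation factor that delivers aminoacyl-tRNA, rose in SCC15 (0.90) and fell in SCC25 (-0.21), and the difference was 1.11. Of 29 factors that assemble the mitoribosome or modify its RNA, 6 rose and 6 fell in SCC15 (median 0.20), and 7 rose and 15 fell in SCC25 (median -0.28). DDX28, a helicase of large-subunit assembly named after its values were seen, stood at 458, 462 and 480.1 with DMSO and 83.5, 95.8 and 162 with squamocin in SCC15, and at 295, 252 and 279.7 with DMSO and 20.3, 30.2 and 21.1 with squamocin in SCC25. The fall was far outside the spread of the replicates, with log2 fold changes of -2.09 and -3.49. Reads of both ribosomal RNAs of the mitochondrial genome rose in both lines, MT-RNR1 by 1.64 in SCC15 and 1.65 in SCC25 and MT-RNR2 by 1.54 and 1.24 on the log2 scale, also with equal totals (1.05 to 1.44). The methods of the study do not say how messenger RNA was selected or ribosomal RNA removed. A part of the library preparation in these values was not tested. With equal totals the translation factors gave 2 rises and 12 falls in SCC15 and 2 and 9 in SCC25. The assembly factors then gave 2 and 14 in SCC15 and 4 and 20 in SCC25. Of all genes tested, 14.8% rose and 50.5% fell in SCC15 on that scale, and 30.4% and 47.4% in SCC25. On the main scale the shares of all genes were 30.9% and 30% in SCC15 and 38.3% and 38.5% in SCC25. Without squamocin replicate 3 of SCC15, the translation factors gave 6 rises and 7 falls in that line (median 0.054), the assembly factors 12 and 9 (median 0.17), and both ribosomal RNAs rose (1.44 and 1.39).

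**Figure D5:**
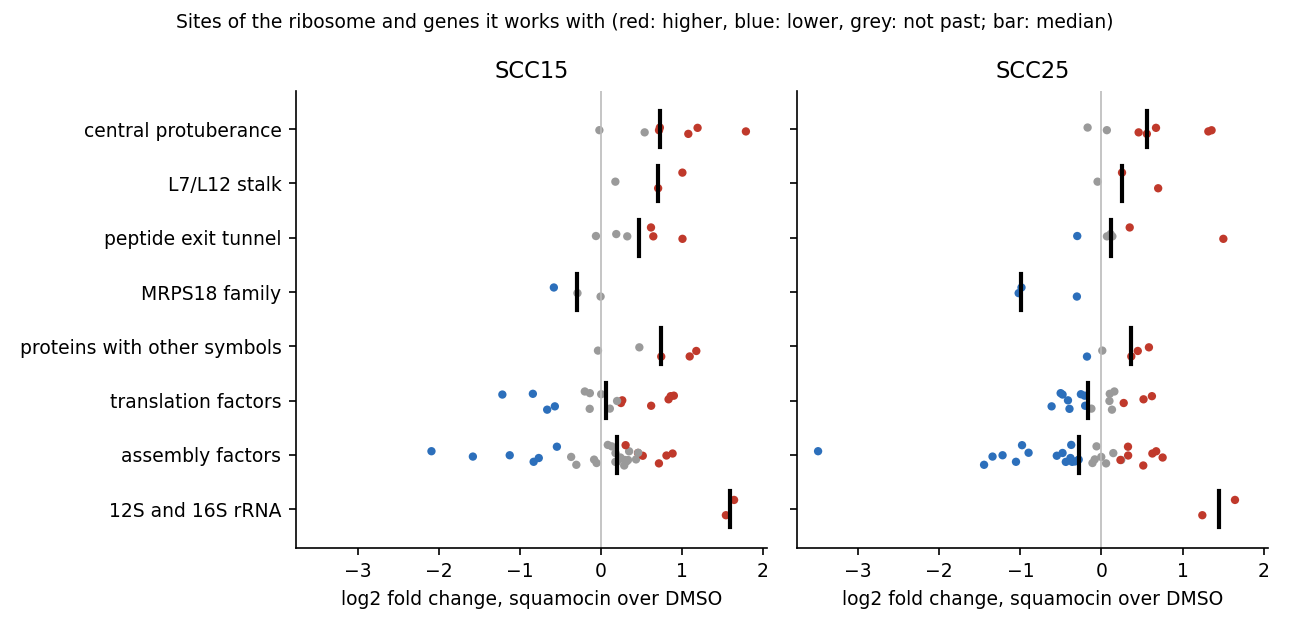
Log2 fold change of the genes of each site of the mitoribosome and of each partner list in SCC15 and SCC25, coloured by call (red higher, blue lower, grey not past the test), with a bar at the median of each set. The members counted at the central protuberance have medians of 0.73 and 0.56, the MRPS18 family -0.29 and -0.99, and the assembly factors 0.20 and -0.28.

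The genes of the members are scattered over 21 chromosomes, with 8 on chromosome 1, and reads of some may be shared with other genes. In GENCODE release 44, 13 members overlap another coding gene on the same strand and 27 on the opposite strand, and 40 overlap none. Pseudogenes bearing the name of a member are listed in the tables for 17 members. MRPS6 overlaps SLC5A3, whose log2 fold change was -0.36 (adjusted p = 0.0995) in SCC15 and 0.89 in SCC25, while that of MRPS6 was 0.92 and 1.52. MRPS17 overlaps NIPSNAP2, which rose in both lines (0.85 and 0.82) while MRPS17 fell. MRPS5 overlaps ZNF514, which fell in both lines (-0.78 and -1.70) while MRPS5 rose (0.80 and 0.25). Among the 40 members without an overlap, 18 rose and 1 fell in SCC15, and 22 rose and 3 fell in SCC25. With squamocin replicate 3 of SCC15 left out, the counts in that line were 19 and 7.

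Starts of 18 members lie within 1000 bases of the start of a coding gene on the other strand, and the neighbours and overlapping genes named were chosen after their values were seen. Member and neighbour had the same sign in 10 of 15 distinct tested pairs in SCC15 and in 12 of 16 in SCC25. No share was worked out for pairs that are not neighbours, and 61 of the 78 members in SCC15 and 53 in SCC25 had a log2 fold change above 0. These counts therefore do not show a link between neighbours. MRPL18 lies by TCP1, a subunit of the cytosolic chaperonin, which rose by 0.49 and 0.34. MRPS18C lies by HELQ, a DNA helicase, which fell in both lines (-1.53 and -1.15). MRPL50 lies by ZNF189, which fell in both lines (-2.73 and -0.997) while MRPL50 rose in SCC25. MRPL46 and MRPS11 share such a start region, and their log2 fold changes were 0.73 and -0.10 in SCC15 and -0.17 and -0.22 in SCC25. Across members, the length of the canonical transcript correlated with the log2 fold change with rho = -0.40 in SCC15 and -0.24 in SCC25, where all genes tested gave -0.32 and -0.12.

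Promoters of 69 members were matched in the RefSeq table (250 bases before to 50 after the start, GRCh38.p14). The ETS letters shown in capitals above, CCGGAAG on either strand, stood in 29 of the 69 (42.0%), against 10.7% of all 27305 promoters and 19.6% of the 9581 promoters of coding genes tested in both lines. In 23 of the 29 a match lay before the start. The YY1 letters AAGATGGC stood in 20 promoters (29.0%), against 3.03% of all and 5.55% of those of tested coding genes, in 15 of them after the start, and in 16 on the strand of the gene. The last 3 letters of the first motif are the first 3 of the second, so that matches can share bases. The other letters searched were those of NRF1 (GCGCATGCG), found in 3 promoters (4.35%, against 2.10% of all and 3.80% of those of tested coding genes), and of the E-box (CACGTG), found in 6 (8.70%, against 7.44% and 10.2%). Those of CCAAT stood in 20 (29.0%, against 35.7% and 36.7%) and those of SP1 (GGGCGG) in 42 (60.9%, against 44.6% and 71.4%). Those of CRE (TGACGTCA) and of CHOP-ATF4 (TGATGCAA) stood in 0 of the 69, against 1.98% and 0.923% of all and 3.30% and 0.397% of those of tested coding genes. The members with the ETS letters had a median log2 fold change of 0.30 in SCC15 and 0.11 in SCC25, and the 40 without them 0.63 and 0.21. For the YY1 letters the medians were 0.34 and 0.28 with them and 0.54 and 0.11 without. When squamocin replicate 3 was left out, the medians in SCC15 were 0.14 with the ETS letters and 0.40 without them, and 0.20 with the YY1 letters and 0.37 without. A match of letters is a description of the sequence and no test of binding was made.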

How the data were processed

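RNA-seq of SCC15 and SCC25 cells, 3 libraries per treatment and line, was re-analysed. The authors aligned reads with HISAT2 2.0.5 to GRCh38 (hg38) and counted them per gene with featureCounts 1.5.0-p3, versions and build as listed in the submitters' processing notes. The strand setting of the counting is not given in the sources used here. The deposited values (unit signal) are the read counts of each library over its size factor, as the authors computed it separately for each line, and 100% of them came out as whole reads when multiplied back, within 0.1 read. Values are therefore compared by test within a table only, apart from the difference between 2 responses. The deposited fold changes and p-values of the authors' own comparison were not used.

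Two-sided tests used limma 3.58.1 (R 4.3.3, moderated with eBayes and trend) on log2 values with 1 added, for genes whose mean in the 6 libraries of a line reached 10, with Benjamini-Hochberg adjustment over all genes tested and a threshold of 0.05. The responses of the lines were compared by a contrast of the 4 group means over 14454 genes. Other settings tried were 0.1 or 10 as the pseudocount, no filter beyond a value above 0, 10 reached in every library, TMM, libraries scaled to equal totals, count models on the whole reads (DESeq2 1.42.0, edgeR 4.0.16), a block for the replicate number, leaving out single libraries, coding genes only, the subunit by the letter of the symbol and the mean in place of the median. The members that overlap no other coding gene were added after the data had been seen. Levels per kilobase use the canonical transcripts of GENCODE release 44, 78 of 78 members matched. 

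Members named were, per line, the 5 largest rises and 5 largest falls that passed the test where the mean reached 100, the 4 largest differences between lines in each direction, members with opposite calls, the 5 highest levels per kilobase, and members and partners set by their role. In SCC15 only 3 members met the rule for falls. The members and lists were chosen with earlier results of these data known. The tests were also run on simulated counts. These held no outlying library and used known scaling, so they cannot speak to squamocin replicate 3 of SCC15 or to the scaling.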

Additional observations from a re-analysis of the deposited data

Results flagged for a closer look

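The response to squamocin differed between the cell lines, by the contrast of the 4 group means in limma, for 19 members that were higher in SCC15 than in SCC25 and for 8 that were lower, which is 24.4% and 10.3% of the members, beside 26.1% and 26% of all genes tested. Of the 40 members that overlap no other coding gene, 5 were higher and 4 lower. Among the named members, the response in SCC15 was higher on the log2 scale for MRPS2 (1.50), MRPL37 (1.35), MRPL54 (1.05), MRPS34 (0.91), MRPL14 (0.84), MRPS27 (0.80), MRPS18A (0.73), MRPL21 (0.49) and MRPS25 (0.48). It was lower for MRPS24 (-1.26), MRPL35 (-1.09), MRPL50 (-0.83), MRPL15 (-0.76), MRPL18 (-0.64), MRPS6 (-0.60) and MRPL34 (-0.52). With equal library totals, 14 of the 19 and all of the 8 remained past the test, and of these named members MRPL14, MRPL21 and MRPS25 did not. MRPL21 passed in 3 of the 12 fits that left out a library, and MRPL34 in 2 of them.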

How the results depend on the processing

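Counts of calls depended on the scaling and on single libraries of SCC15. With equal library totals, members higher with squamocin numbered 19 in SCC15 and 25 in SCC25, those lower 22 and 30, and those whose response was lower in SCC15 than in SCC25 numbered 18. When single libraries were left out, the members higher numbered 26 to 41 in SCC15 and 34 to 40 in SCC25, and the members lower 3 to 18 in SCC15, the 18 being without squamocin replicate 3, and 13 to 16 in SCC25. Without DMSO replicate 3 of SCC15, 26 members were higher there. The responses that were lower in SCC15 numbered 6 to 22, the 22 being without the same squamocin library. Of the 40 rises in SCC15, 26 were kept whichever library was left out, and of the 39 in SCC25, 33 were. The difference between the subunits in SCC15 was 0.21 by means and, by medians, 0.20 among members without an overlap. With each library left out, the difference of the medians was 0.31 to 0.40 in SCC15 and 0.22 to 0.29 in SCC25. With equal totals the sign turned for MRPS27 (-0.22), MRPS30 (-0.10) and MRPS36 (-0.44) in SCC15 and for MRPL20 (-0.17), MRPL14 (-0.19) and MRPS12 (-0.17) in SCC25. The cause was not tested.

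Deviations of same-numbered libraries correlated by -0.092 to 0.042, and those of different-numbered libraries by -0.091 to 0.132. With 3 libraries per group this cannot tell whether same-numbered libraries shared a batch, and the main fits used no pairing. With the replicate block, 39 members were higher and 4 lower in SCC15, 39 and 15 in SCC25, and 21 and 8 in the comparison of the lines. With edgeR, run on whole reads, rises and falls over all genes numbered 5074 and 4757 in SCC15 and 6413 and 6384 in SCC25, near the 4921, 4773, 6335 and 6367 of limma. edgeR and DESeq2 kept 40 and 40 of the rises in SCC15 and 39 and 38 in SCC25. Members with few reads set a limit of precision: the lowest value was 8 reads in SCC15 and 20 in SCC25.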
